A study of Homo sapiens with 6 samples.

Results

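The PI3K, AKT and mTOR pathway carries the insulin and growth factor signal from the cell surface to growth, metabolism and protein synthesis. Insulin and IGF1 receptors recruit adaptor proteins, which bring class I PI3K to the membrane, where it makes the lipid PIP3. PIP3 draws the kinases PDK1 and AKT to the membrane, phosphatases remove the lipid or the activating phosphates, and AKT acts on GSK3, on FOXO transcription factors and, through the TSC proteins and RHEB, on the mTOR kinase. Transcript levels of 38 genes of this pathway were examined here, of 30270 genes in the count table. The genes were taken by symbol from a fixed list and sorted by role: receptors and adaptors, PI3K subunits, phosphatases, kinases and complex partners, and downstream targets. All 38 passed the filter on low counts, and their estimated counts lay between 39.0 and 31908.7 in single libraries.

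Total RNA depleted of rRNA was sequenced from HEK 293T cells, an immortalized human embryonic kidney line, in 3 wild type libraries (WT) and 3 libraries from cells that lack the terminal uridylyltransferases TUT4 and TUT7 (TENT3A/B double knockout, ΔTUT4/7). TUT4 and TUT7 add uridines to the 3′ ends of RNAs, among them let-7 precursors and mRNAs. Both groups were grown in the same serum-supplemented medium, and no treatment was applied to either. The libraries are labelled as biological replicates and hold between 18757228 and 33148937 counts each; whether they came from separate cultures is not given, so that p-values measure the spread between these libraries.

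The targeted genes were checked first. TUT7 was at 60.4, 62.6 and 64.8 counts scaled to library depth (CPM, TMM-scaled) in the WT libraries and at 27.2, 25.2 and 26.5 CPM in those labelled ΔTUT4/7, a fall of 2.38-fold. TUT4 was at 212, 216 and 206 CPM in WT and at 882, 920 and 917 CPM in the libraries labelled ΔTUT4/7, which is 4.29-fold higher and goes against a loss of the transcript. A gene count does not show whether a transcript is intact, and every direction below rests on the labels. Of 5 genes that mark the HEK 293T line, all were detected in WT with a summed level of 2050 to 2520 CPM. Their sum in the libraries labelled ΔTUT4/7 was 670 to 699 CPM, with NEFM, a neurofilament gene, going from 879 CPM or more to 0.0511 CPM or less. Of these markers, PAX2 and LHX1 added little to either sum. In WT, PAX2 was at 1.81 to 2.39 CPM and LHX1 at 3.54 to 4.37 CPM. In the libraries labelled ΔTUT4/7 they were at 1.29 to 1.63 and 1.55 to 2.18 CPM. The defining markers of endothelial cells and hepatocytes did not pass the count filter, and of 4 fibroblast and 4 blood markers, 1 each did. Whether the ΔTUT4/7 line was grown from 1 cell is not given in the sources used here, and a difference between 2 lines cannot be told apart from the loss of TUT4 and TUT7 in this design. In bulk RNA, less transcript per cell and fewer cells with the transcript cannot be told apart either.

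Most of the pathway genes changed, and most changed by little. In edgeR's quasi-likelihood test, with the false discovery rate (adjusted p) taken over all 23952 genes tested and called below 0.05, 31 of the 38 genes (81.6%) differed between the groups: 20 rose and 11 fell in the libraries labelled ΔTUT4/7. Calls were frequent throughout the transcriptome: 57.7% of all tested genes were called, 28.6% upwards and 29.0% downwards, and the share was 74.4% among protein-coding genes whose mean count reached 50. Only 4 of the 38 were called at 2-fold or more. These are IRS2, which rose, and INSR, PIK3CD and INPP4B, which fell; among all tested genes, 5.90% rose and 12.4% fell to this extent. Of the 38 genes, 28 differed by less than 1.5-fold, and 21 of those 28 were still called. The values of the 2 groups did not overlap for 32 of the 38 (84.2%), against 62.7% of all tested genes. Among protein-coding genes whose mean count reached 50, this share was 77.3%.

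The direction of the small changes depends on scaling. The median log2 fold change was 0.13 for the 38 genes, -0.02 for all tested genes and 0.08 for those protein-coding genes. With library size in place of TMM scaling, the median of all genes shifted by -0.11 on the log2 scale, and 10 pathway genes were called higher and 14 lower. The calls of 18 genes held in all 15 alternatives that were run: IGF1R, INSR, IRS2, IRS4, PIK3CA, PIK3CB, PIK3CD, PIK3R2, INPP4B, INPPL1, PHLPP1, RPTOR, RICTOR, DEPTOR, AKT1S1, TSC1, RHEB and FOXO1. The calls of 13 genes were lost in at least 1 of them.

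**Figure D1:**
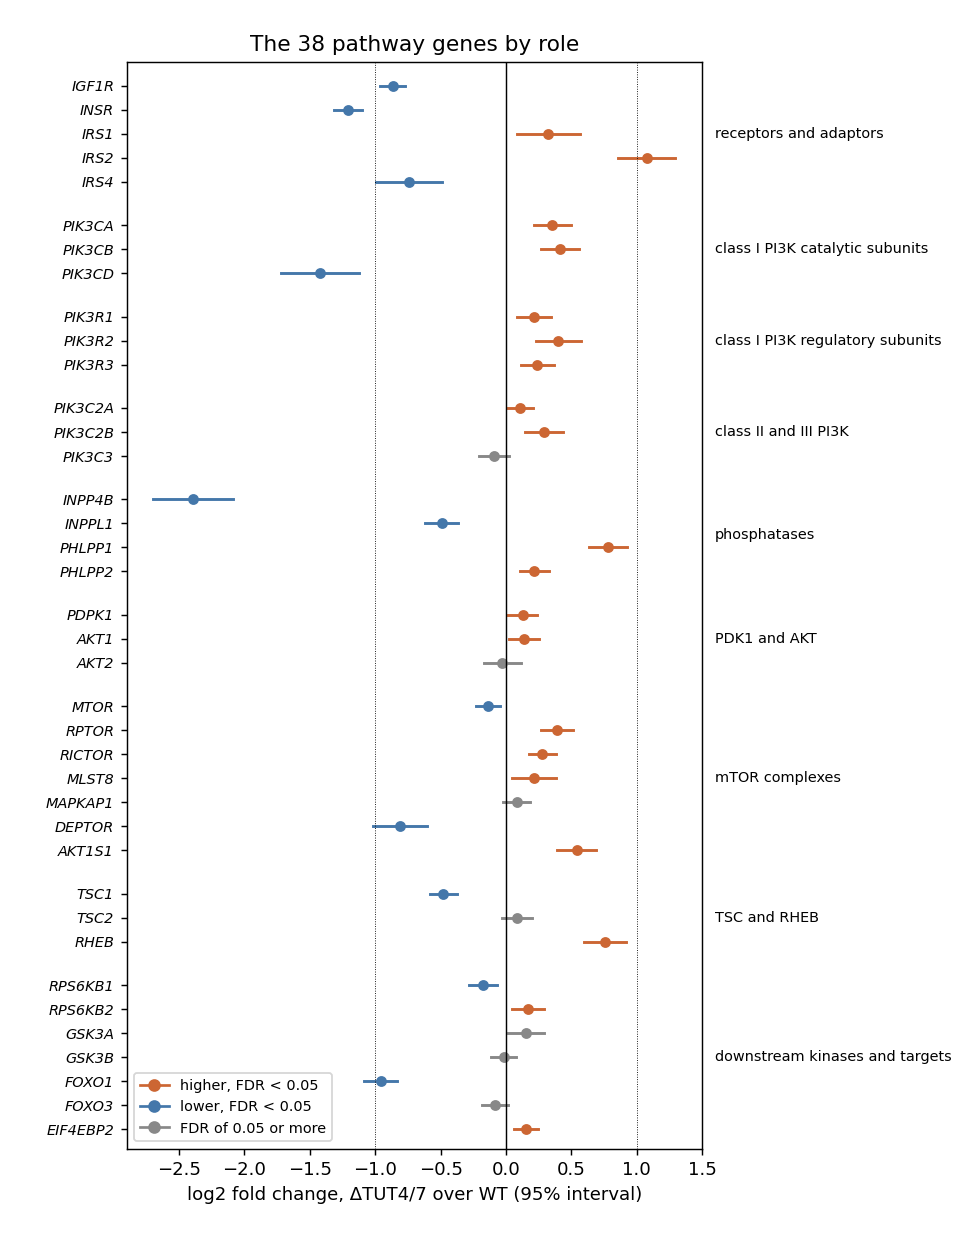
Log2 fold change (libraries labelled ΔTUT4/7 over WT) with its 95% interval for each of the 38 genes, grouped by role, from 3 libraries per group. Dotted lines mark a 2-fold change: INPP4B, PIK3CD and INSR lie beyond it on the lower side and IRS2 on the higher side, and 28 of the 38 genes differ by less than 1.5-fold.

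Because the uridylyltransferases act on let-7 precursors and the study examined let-7 beside AKT signalling, let-7 and its seed matches in the pathway transcripts are shown. The mature let-7 miRNAs share the seed at bases 2 to 8, set in capitals (sequences from RefSeq, GRCh38.p14). These 3 members of the family differ from each other outside the seed.
hsa-let-7a-5p: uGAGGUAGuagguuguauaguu
hsa-let-7g-5p: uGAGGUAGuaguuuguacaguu
hsa-miR-98-5p: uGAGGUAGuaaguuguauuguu

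The sequence CTACCTC pairs with this seed, and CTACCTCA adds the A opposite the first base of the miRNA. Only the sense strand of the annotated 3′ UTRs (GENCODE release 44, hg38) was searched, and a longer match contains the shorter one. In 7 of the 38 genes (18.4%) the 3′ UTR held the 8-base sequence, against 4.29% of all tested genes with a 3′ UTR. The 3′ UTRs of the pathway genes were longer, with a median of 3272.5 bases against 1327 bases. Of the 7 sites, 6 are given below with the match in capitals, since they mark the pathway transcripts with the longest pairing to the seed.
IGF1R (chr15:98960046-98960075, plus strand): cccccaaacatttatCTACCTCActcttat
INSR (chr19:7114649-7114678, minus strand): ttttttcagcacagtCTACCTCAgtgtatt
IRS2 (chr13:109755837-109755866, minus strand): aaaacgaccacagtcCTACCTCAgttcaag
PIK3CA (chr3:179238461-179238490, plus strand): attggattggtaactCTACCTCAgaaggaa
AKT2 (chr19:40231242-40231271, minus strand): tgggcacaggcctggCTACCTCAtcttttt
RICTOR (chr5:38940320-38940349, minus strand): cattcattttaaacaCTACCTCAgttaata

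Of these 7 genes, IRS2, PIK3CA, PIK3C2B and RICTOR rose, IGF1R and INSR fell, and AKT2 was not called. Their median log2 fold change was 0.28, against 0.13 for the 29 genes with neither match. Those 29 are not free of shorter matches: IRS1, PIK3CB and PIK3C3 hold TACCTCA, which includes the A but lacks the first letter of the 8-base sequence. The 3′ UTRs of TSC1 and EIF4EBP2 held the 7-base sequence without the A; TSC1 fell and EIF4EBP2 rose. Among all tested genes with a 3′ UTR, 38.1% of the 611 with the 8-base sequence fell and 31.6% of those with neither did. Of the 611, 213 rose, as did 4909 of the 12676 with neither. The median 3′ UTR was 3222 bases with the 8-base sequence and 1176 bases with neither, and this difference was not adjusted for. A match is a stretch of letters and not a measured site, and let-7 itself was not measured in these libraries.

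**Figure D2:**
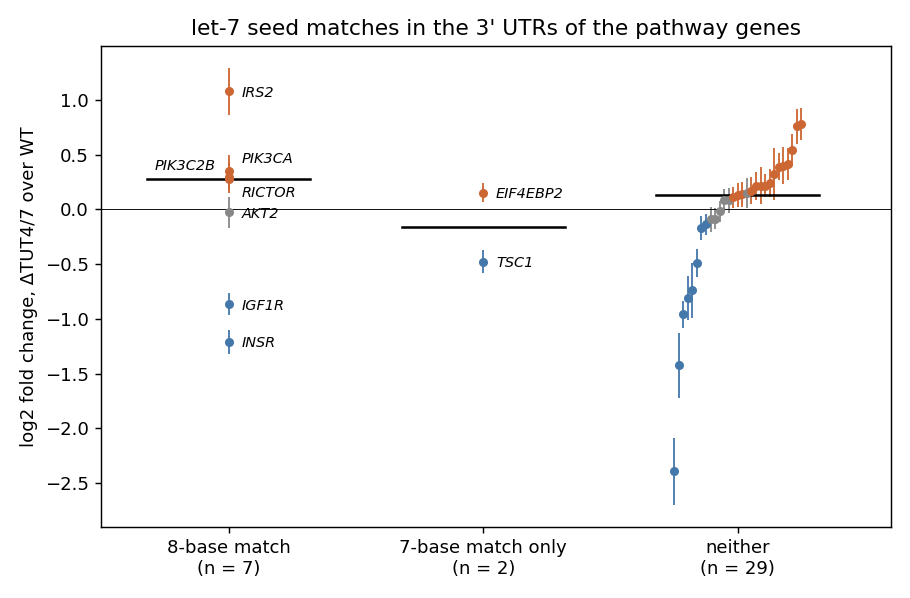
Log2 fold change (libraries labelled ΔTUT4/7 over WT) with 95% intervals for the pathway genes, split by the let-7 seed match in their 3′ UTR (8-base, 7 genes; 7-base only, 2 genes; neither, 29 genes). IRS1, PIK3CB and PIK3C3, which hold TACCTCA, are in the last group. Black lines are medians, at 0.28 for the 8-base group and 0.13 for genes with neither; orange, blue and grey points are genes called higher, called lower and not called, and the 8-base group holds both higher and lower genes.

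The 2 receptors fell together. INSR, the insulin receptor gene (chr19:7112255-7294414 in hg38), was at 133, 122 and 129 CPM in WT and at 57.3, 56.3 and 52.1 CPM in the libraries labelled ΔTUT4/7. The groups lay far apart, with a 2.31-fold lower level (log2 fold change -1.21 ± 0.05 SE, adjusted p = 3.79e-14, edgeR). IGF1R, which encodes the IGF1 receptor (chr15:98648539-98964530), was at 273, 255 and 262 CPM in WT. Its level in the libraries labelled ΔTUT4/7 was 150, 137 and 146 CPM, again without overlap (1.82-fold lower, log2 fold change -0.87 ± 0.05, adjusted p = 1.09e-12). Per kilobase of exon, the summed level of both receptors was 30.7 ± 1.12 CPM (SD, n = 3) in WT and 15.5 ± 0.535 CPM in the libraries labelled ΔTUT4/7. INSR fell further than IGF1R: the ratio of IGF1R to INSR per exon length was 1.59 to 1.62 in WT and 1.89 to 2.17 in the libraries labelled ΔTUT4/7.

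The adaptor genes did not move together. IRS4, the adaptor for which HEK 293T cells are known, was the most abundant by far and was also counted among the line markers above. It was at 1046, 813 and 1040 CPM in WT and at 591, 561 and 586 CPM in the libraries labelled ΔTUT4/7 (1.67-fold lower, log2 fold change -0.74 ± 0.10 SE, adjusted p = 0.00102, edgeR). The lowest WT library was still above every library labelled ΔTUT4/7, although the spread in WT was wide. IRS2, an adaptor that couples both receptors to PI3K (chr13:109752695-109786583), was at 9.42, 10.5 and 9.68 CPM in WT and at 18, 21.9 and 23.0 CPM in the libraries labelled ΔTUT4/7. It was the only gene of the 38 to rise by 2-fold or more (2.12-fold, log2 fold change 1.08 ± 0.10, adjusted p = 1.11e-08). IRS1, the founding member of the family, was at 7.59, 9.73 and 9.42 CPM in WT and 11.6, 11.7 and 10.3 CPM in the libraries labelled ΔTUT4/7, a rise of 1.26-fold (adjusted p = 0.0199). Its call was lost without WT 1, ΔTUT4/7 1 or ΔTUT4/7 2 (adjusted p = 0.107, 0.074 and 0.0638), with library size alone (0.124), with limma on log2(CPM + 1) (0.109) and with DESeq2 (0.052). Limma on log2(CPM + 1) also scales to library size without TMM, here and below.

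Per exon length, IRS4 made up 96.5% ± 0.762 (SD, n = 3) of the summed IRS level in WT and 90.4% ± 0.829 in the libraries labelled ΔTUT4/7. The share of IRS2 went from 2.04% to 6.67% and that of IRS1 from 1.51% to 2.91%, with no overlap between the groups for any of the 3. The IRS sum was 60.3 ± 7.87 CPM per kilobase in WT and 38.5 ± 0.83 in the libraries labelled ΔTUT4/7. IRS4 therefore remained the main IRS transcript in every library. The exon length used for IRS4 was 16618 bases, which is longer than the whole interval counted for it (chrX:108732482-108736409). The level of IRS4 per length and the IRS sum are thus understated, and the shares of IRS1 and IRS2 are overstated. An exact permutation test cannot pass 0.05 with 3 libraries against 3, and the shares are given as a description.

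**Figure D3:**
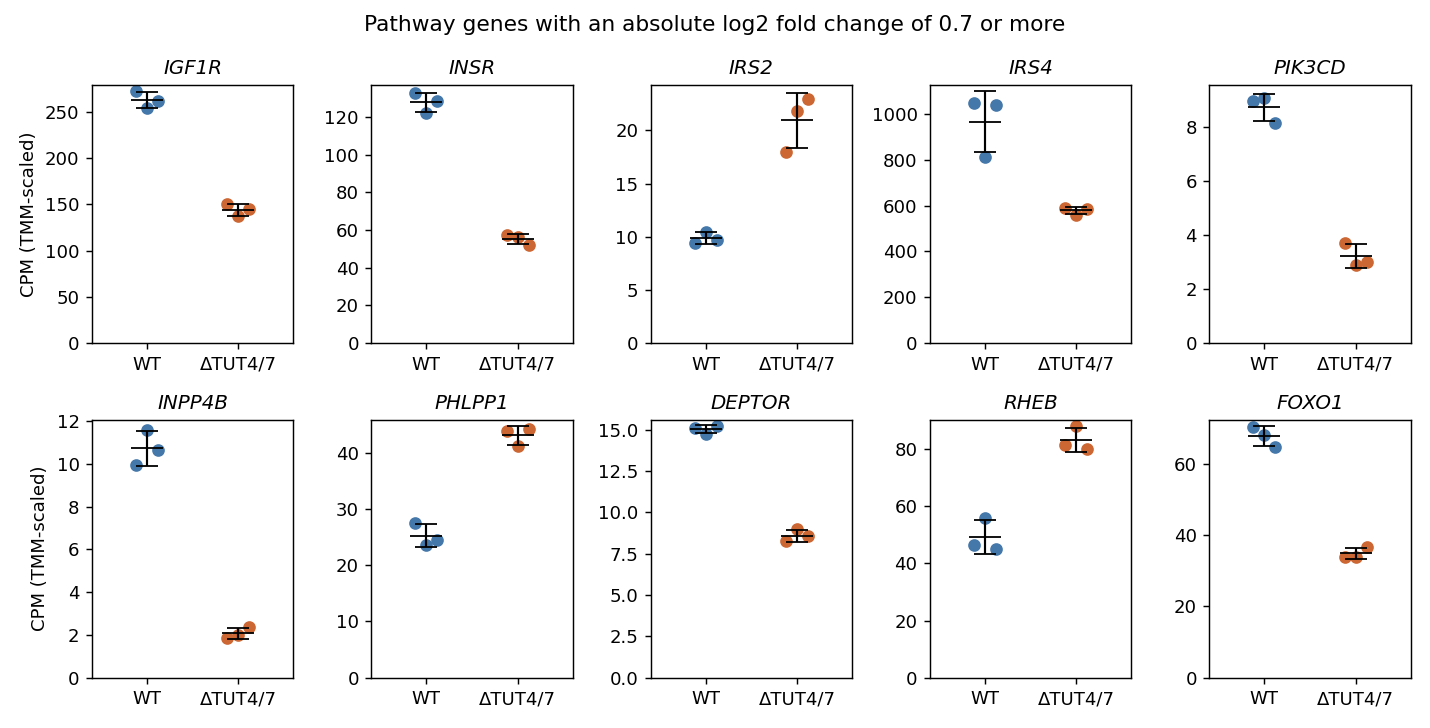
TMM-scaled CPM in each of the 6 libraries (WT, left; labelled ΔTUT4/7, right) for the 10 pathway genes with an absolute log2 fold change of 0.7 or more. Points are libraries and bars the mean and SD of 3; the groups do not overlap in any panel, and IRS2, PHLPP1 and RHEB are the genes that are higher in the libraries labelled ΔTUT4/7.

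Among the class I catalytic subunits, PIK3CA and PIK3CB rose slightly and PIK3CD fell. PIK3CA, which encodes the alpha subunit (chr3:179148114-179240093), was at 58.1, 65.5 and 54.3 CPM in WT and at 74.8, 81.1 and 71.5 CPM in the libraries labelled ΔTUT4/7 (1.28-fold, log2 fold change 0.35 ± 0.07 SE, adjusted p = 0.000172, edgeR). PIK3CB, the beta subunit gene, was at 41.6, 43.8 and 35.6 CPM in WT and at 56.1, 51.8 and 52.7 CPM in the libraries labelled ΔTUT4/7 (1.33-fold, adjusted p = 3.92e-05). PIK3CD, whose delta subunit is best known from white blood cells, was low in both groups. It was at 8.96, 9.08 and 8.15 CPM in WT and at 3.71, 2.89 and 3.01 CPM in the libraries labelled ΔTUT4/7 (2.72-fold lower, log2 fold change -1.42 ± 0.14, adjusted p = 1.94e-08). PIK3CD overlaps CLSTN1 on the opposite strand, a gene with 2080% of its counts, and the strand setting of the counting is not given in the sources used here, so its level is uncertain. Per exon length, PIK3CD went from 9.62% to 2.89% of the summed level of the 3 genes and PIK3CB from 54.1% to 59.0%, while the share of PIK3CA overlapped between the groups (36.3% and 38.1%).

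All 3 regulatory subunit genes, whose products hold the catalytic subunits and dock on phosphorylated adaptors, rose by less than 1.5-fold. PIK3R2 was at 44.4, 40.2 and 51.6 CPM in WT and at 63.3, 60.0 and 56.5 CPM in the libraries labelled ΔTUT4/7 (1.32-fold, log2 fold change 0.40 ± 0.08 SE, adjusted p = 0.000523, edgeR). PIK3R1 was 1.16-fold higher, from 49.7 ± 3.62 CPM (SD, n = 3) to 57.7 ± 2.33 CPM, with an adjusted p of 0.00512. PIK3R3 went from 64.1 ± 5.91 to 75.5 ± 0.992 CPM, 1.18-fold higher, with an adjusted p of 0.00186. With scaling to library size alone, the calls on PIK3R1 and PIK3R3 were lost (adjusted p = 0.194 and 0.106). Their summed level per kilobase of exon was 20.5 ± 0.698 CPM in WT and 25.3 ± 0.654 CPM in the libraries labelled ΔTUT4/7, and none of the 3 took a share of it that lay apart between the groups.

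Of the PI3K genes outside class I, PIK3C2B, a class II enzyme, rose from 32.3 ± 2.38 to 39.3 ± 1.75 CPM (SD, n = 3; log2 fold change 0.29 ± 0.07 SE, adjusted p = 0.000967, edgeR). PIK3C2A, the more abundant class II gene, was at 196, 203 and 184 CPM in WT and 203, 213 and 212 CPM in the libraries labelled ΔTUT4/7, and its adjusted p of 0.0496 was just under the threshold. That call was lost when any of 5 of the 6 libraries was left out (all but WT 2), with an adjusted p of 0.0534 to 0.271. PIK3C3, the class III enzyme of endosomes and autophagy, was at 67.9 ± 3.16 and 64.0 ± 2.53 CPM and was not called (log2 fold change -0.09, 95% interval -0.20 to 0.03, adjusted p = 0.173). It was called lower with library size alone (-0.20, adjusted p = 0.00366), with the filter at a mean count of 50 (-0.15, adjusted p = 0.0203) and with limma on log2(CPM + 1) (-0.20, adjusted p = 0.00506).

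The phosphatases moved in both directions and held the largest change of the 38 genes. INPP4B, an inositol lipid phosphatase that acts downstream of PI3K (chr4:142023160-142847432), was at 9.93, 11.6 and 10.7 CPM in WT and at 1.84, 2.01 and 2.35 CPM in the libraries labelled ΔTUT4/7. The groups lay far apart, and the mean was 5.19-fold lower (log2 fold change -2.39 ± 0.15 SE, adjusted p = 8.46e-12, edgeR). INPPL1, which encodes the lipid phosphatase SHIP2, was at 131, 115 and 118 CPM in WT and at 92.4, 79.4 and 85.8 CPM in the libraries labelled ΔTUT4/7 (1.41-fold lower, adjusted p = 8.73e-07). PHLPP1, a protein phosphatase that removes a phosphate from AKT, rose from 27.5, 23.6 and 24.5 CPM to 43.8, 41.1 and 44.3 CPM (1.71-fold, log2 fold change 0.78 ± 0.07, adjusted p = 3.87e-09). Its paralog PHLPP2 rose less, from 67.5 ± 2.36 to 78.4 ± 2.58 CPM (SD, n = 3; adjusted p = 0.00117), and was not called with scaling to library size alone (adjusted p = 0.117). Per exon length, PHLPP1 took 34.0% ± 2.33 of the PHLPP sum in WT and 43.1% ± 0.235 in the libraries labelled ΔTUT4/7, without overlap, and PHLPP2 remained the more abundant of the pair.

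The kinases at the centre of the pathway differed by 1.10-fold or less. PDPK1, which encodes PDK1, the kinase that activates AKT, was at 70.3 ± 2.26 CPM (SD, n = 3) in WT and 76.9 ± 3.64 CPM in the libraries labelled ΔTUT4/7 (log2 fold change 0.13 ± 0.05 SE, adjusted p = 0.0435, edgeR). AKT1, a ubiquitous AKT kinase (chr14:104769349-104795751), was at 70.6, 64.8 and 72.5 CPM in WT and at 79.4, 75.2 and 74.0 CPM in the libraries labelled ΔTUT4/7. The groups were just apart, with a rise of 1.10-fold (log2 fold change 0.14 ± 0.06, adjusted p = 0.0377). AKT2, the AKT gene most tied to insulin action, was at 117, 98.0 and 101 CPM in WT and at 107, 95.9 and 106 CPM in the libraries labelled ΔTUT4/7, which overlap. Its log2 fold change was -0.03, with a 95% interval of -0.17 to 0.11 (adjusted p = 0.738). Per kilobase of exon, AKT1 and AKT2 lay close together, at 6.32 ± 0.365 and 6.63 ± 0.66 CPM in WT and at 6.96 ± 0.261 and 6.48 ± 0.392 CPM in the libraries labelled ΔTUT4/7. The calls on both genes that rose were fragile. That on PDPK1 was lost without WT 1, WT 2, ΔTUT4/7 1 or ΔTUT4/7 3 (adjusted p = 0.165, 0.0608, 0.167 and 0.148), and that on AKT1 without WT 1, WT 2, ΔTUT4/7 1 or ΔTUT4/7 2 (adjusted p = 0.056, 0.187, 0.179 and 0.0517). With scaling to library size alone, the log2 fold change was 0.02 for each (adjusted p = 0.834 for PDPK1 and 0.735 for AKT1), and neither was called with the filter at a mean count of 50, with limma on log2(CPM + 1) or with DESeq2.

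The mTOR kinase sits in mTORC1, which RPTOR defines, and in mTORC2, which RICTOR and MAPKAP1 define; MLST8 is shared, and DEPTOR and AKT1S1 (PRAS40) encode inhibitory partners. MTOR itself was at 298, 298 and 288 CPM in WT and 274, 254 and 276 CPM in the libraries labelled ΔTUT4/7, a 1.10-fold lower level (log2 fold change -0.14 ± 0.04 SE, adjusted p = 0.0122, edgeR). Its call was lost without ΔTUT4/7 2 (adjusted p = 0.0757) and with a GC and length offset (log2 fold change -0.05, adjusted p = 0.294). RPTOR rose from 75.8, 66.4 and 71.7 CPM to 94.1, 86.9 and 98.7 CPM (1.31-fold, adjusted p = 7.08e-06). RICTOR rose from 100, 104 and 94.3 CPM to 121, 125 and 117 CPM (1.21-fold, adjusted p = 5.4e-05). Partners of both complexes thus rose, and the ratio of RPTOR to RICTOR per exon length was 0.832 to 0.994 in WT and 0.91 to 1.10 in the libraries labelled ΔTUT4/7, which overlap. MLST8 went from 27.6 ± 3.47 to 32 ± 0.82 CPM (SD, n = 3; adjusted p = 0.0275), a call that was lost without WT 2, ΔTUT4/7 1 or ΔTUT4/7 2 (adjusted p = 0.197, 0.0907 and 0.0637) and in 5 of the 9 alternatives that kept all libraries, library size alone among them (0.294). MAPKAP1 was at 70.1 ± 1.93 and 74.1 ± 0.471 CPM and was not called (adjusted p = 0.174), although the groups did not overlap.

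The 2 inhibitory partners differed in opposite directions. DEPTOR was at 15.1, 14.8 and 15.2 CPM in WT and at 8.24, 8.97 and 8.58 CPM in the libraries labelled ΔTUT4/7 (1.75-fold lower, log2 fold change -0.81 ± 0.10 SE, adjusted p = 3.49e-07, edgeR). Replicates agreed closely in both groups, and the ratio of DEPTOR to MTOR per exon length went from 0.26 ± 0.00832 (SD, n = 3) to 0.164 ± 0.0142. AKT1S1, an AKT substrate, was at 29.0, 28.0 and 33.9 CPM in WT and at 45.6, 44.2 and 42.8 CPM in the libraries labelled ΔTUT4/7 (1.46-fold higher, adjusted p = 1.32e-06). AKT1S1 overlaps TBC1D17 on the opposite strand, which holds 35.9% of its counts, and its level is uncertain to that extent.

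Upstream of mTORC1, the genes of the TSC complex and of RHEB, the small GTPase that TSC inhibits and that activates mTORC1, did not move together. TSC1 was at 105, 105 and 107 CPM in WT and at 74.8, 72.3 and 80.4 CPM in the libraries labelled ΔTUT4/7 (1.39-fold lower, log2 fold change -0.48 ± 0.05 SE, adjusted p = 4.99e-08, edgeR). TSC2 was at 113 ± 5.95 and 120 ± 8 CPM (SD, n = 3) and was not called (log2 fold change 0.08, 95% interval -0.03 to 0.20, adjusted p = 0.194), but was without ΔTUT4/7 2 (adjusted p = 0.0382) and with a GC and length offset (adjusted p = 0.0057). The ratio of TSC2 to TSC1 per exon length was 0.876 to 0.958 in WT and 1.32 to 1.43 in the libraries labelled ΔTUT4/7, which do not overlap. TSC2 overlaps PKD1 on the opposite strand, which holds 66.4% of its counts. RHEB was at 46.6, 56.0 and 45.0 CPM in WT and at 81.5, 88.1 and 80.2 CPM in the libraries labelled ΔTUT4/7, with every library of the second group above every WT library (1.69-fold higher, log2 fold change 0.76 ± 0.07, adjusted p = 2.66e-07).

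**Figure D4:**
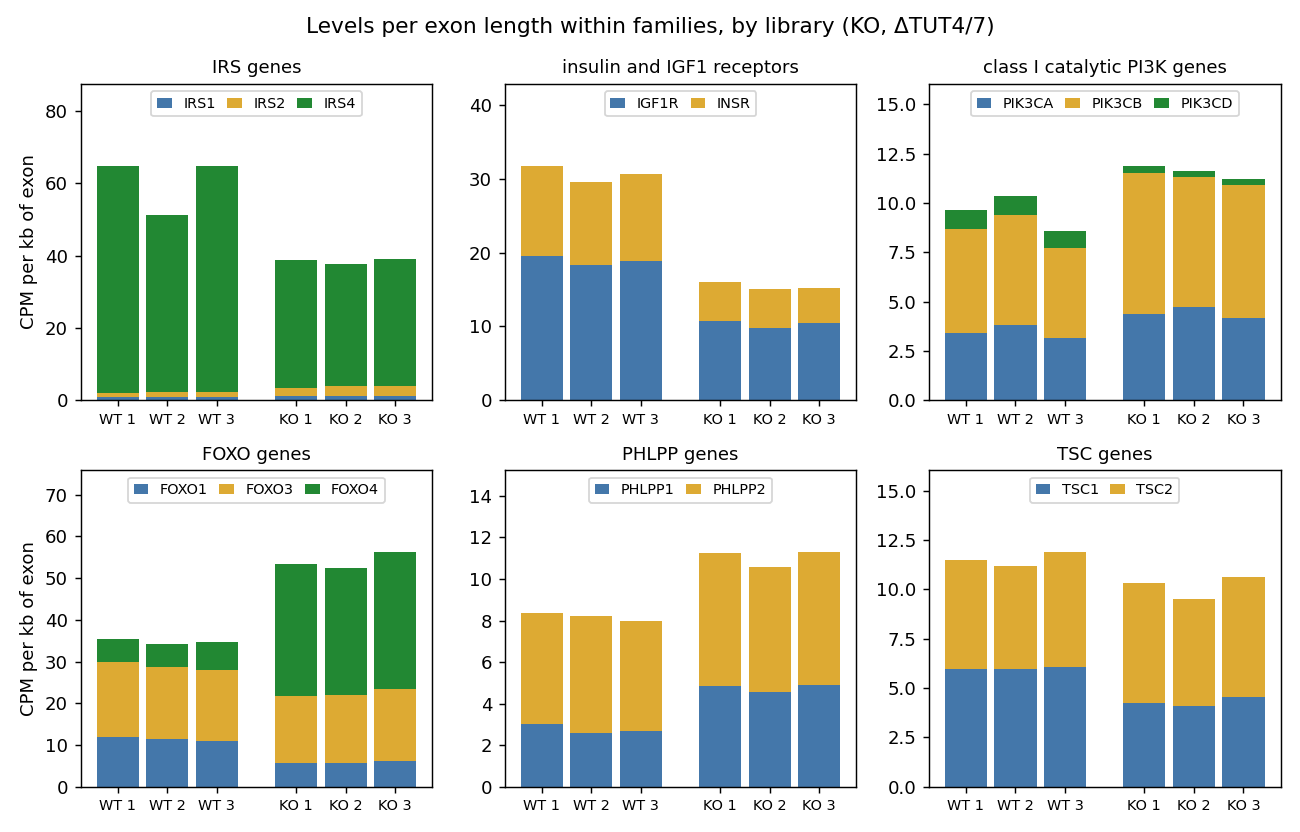
Levels per kilobase of exon (TMM-scaled CPM per kb) of related genes stacked within each library, WT 1 to 3 on the left of each panel and the libraries labelled ΔTUT4/7 (KO) on the right. IRS4 fills most of the IRS bars in all libraries, the receptor bars go from 30.7 to 15.5 on average, and FOXO4 fills most of the FOXO bars in the libraries labelled ΔTUT4/7. The IRS bars understate IRS4, whose exon length used here is longer than the interval counted for it.

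Among the downstream genes, FOXO1 changed most. FOXO1, a transcription factor that AKT keeps out of the nucleus (chr13:40555667-40666641), was at 70.5, 68.2 and 64.9 CPM in WT and at 34.0, 34.0 and 36.8 CPM in the libraries labelled ΔTUT4/7 (1.94-fold lower, log2 fold change -0.96 ± 0.06 SE, adjusted p = 9.99e-12, edgeR). Its relative FOXO3 was at 134 ± 4.28 and 127 ± 5.05 CPM (SD, n = 3) and was not called (log2 fold change -0.08, 95% interval -0.18 to 0.01, adjusted p = 0.138). The family member FOXO4, which is not among the 38 genes, was at 20.2, 20.6 and 25.4 CPM in WT and at 120, 115 and 124 CPM in the libraries labelled ΔTUT4/7 (5.42-fold higher, adjusted p = 1.11e-14). Per exon length, FOXO1 thus went from 32.8% ± 1.21 to 10.9% ± 0.156 of the FOXO sum and FOXO4 from 16.8% ± 2.25 to 58.5% ± 0.591. The share of FOXO3, which was not called, also went from 50.4% to 30.6%, since the sum itself rose from 34.7 to 53.9 CPM per kilobase.

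The kinases and the translation regulator below AKT and mTORC1 differed by less than 1.5-fold. RPS6KB1, the gene of the ribosomal S6 kinase S6K1, went from 113 ± 4.45 to 101 ± 5.70 CPM (SD, n = 3; log2 fold change -0.17 ± 0.05 SE, adjusted p = 0.00684, edgeR), a call that was lost without ΔTUT4/7 1 (adjusted p = 0.0723) and with a GC and length offset (log2 fold change -0.06, adjusted p = 0.182). RPS6KB2, which encodes S6K2, went from 42.6 ± 1.53 to 48.0 ± 1.38 CPM (adjusted p = 0.0182), a call that was lost without WT 1 or ΔTUT4/7 1 (adjusted p = 0.0664 and 0.073) and in 4 of the 9 alternatives that kept all libraries, among them library size alone (0.454) and a GC and length offset (0.235). The share of S6K1 in their sum per exon length was 66.7% ± 1.18 in WT and 61.3% ± 1.45 in the libraries labelled ΔTUT4/7, without overlap. GSK3A, which AKT inhibits, was at 45.9 ± 3.13 and 50.9 ± 3.65 CPM and was not called (adjusted p = 0.0559), but was without WT 2 or ΔTUT4/7 2 (adjusted p = 0.0149 and 0.0145). It overlaps ZNF526 on the opposite strand, which holds 43.9% of its counts. GSK3B, its paralog, was at 154 ± 4.95 and 153 ± 5.41 CPM (log2 fold change -0.02, 95% interval -0.11 to 0.08, adjusted p = 0.779). EIF4EBP2, a translation repressor that mTORC1 phosphorylates, was the most abundant downstream gene per exon length and rose from 234, 227 and 224 CPM to 254, 260 and 247 CPM (1.11-fold, adjusted p = 0.00399). With scaling to library size alone, EIF4EBP2 was not called (adjusted p = 0.482), and FOXO3 and GSK3B were called lower (log2 fold change -0.20 and -0.13, adjusted p = 0.00156 and 0.0224).

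Position along the chromosome was set beside each change. For each gene, the median log2 fold change of the 20 nearest expressed genes on its chromosome was computed, and 26 of the 31 called genes (83.9%) had the sign of their neighbourhood. Of the 11043 called genes that averaged at least 50 counts, 65.9% did. The correlation across the 38 genes was r = 0.552 (Spearman's rho = 0.580), against r = 0.286 (rho = 0.360) over 15574 genes at that level; both are across genes that share the same 6 libraries and describe no difference that was tested. IRS2 lies where all 20 neighbours were higher, with a median of 0.91. IGF1R and IRS4 lie among neighbours of which 17 of 20 were lower, with medians of -0.996 and -1.01, a larger fall than that of either gene. FOXO1 (neighbours -0.60) and RHEB (neighbours 0.41) also moved the way their neighbours did. INPP4B differed from its neighbourhood most, at -2.39 against -0.04, followed by PIK3CD (-1.42 against -0.38), INSR (-1.21 against -0.21), DEPTOR (-0.81 against 0.10) and TSC1 (-0.48 against 0.31, with 4 of 20 neighbours lower). PHLPP1 rose by 0.78 among neighbours with a median of 0.10. The part of chromosomal position in these changes was not tested.

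**Figure D5:**
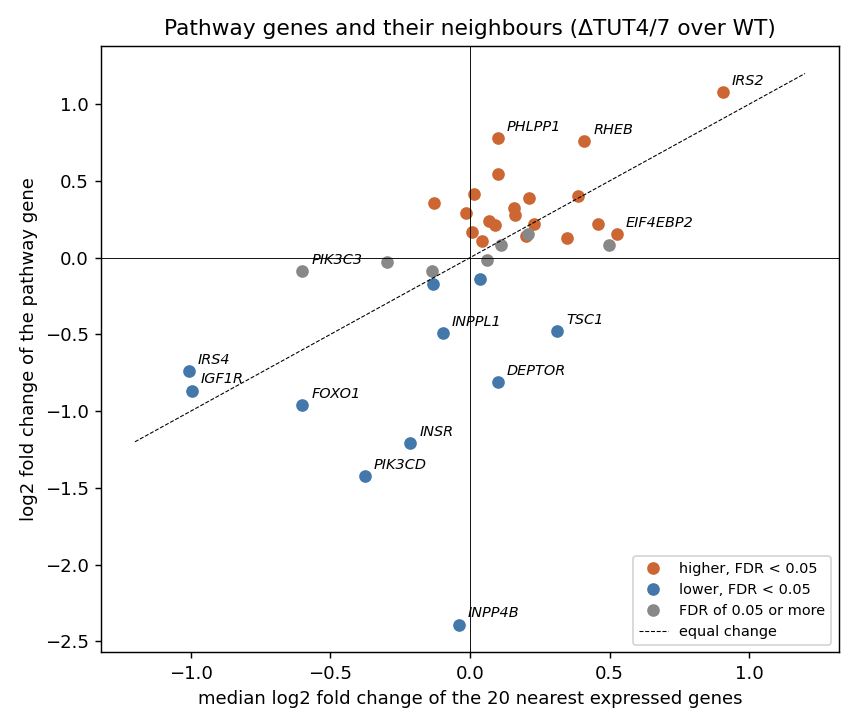
Log2 fold change of each of the 38 genes (y axis) against the median log2 fold change of its 20 nearest expressed genes (x axis), libraries labelled ΔTUT4/7 over WT; the dashed line marks an equal change. IRS2, IRS4 and IGF1R lie near the line at its ends, and INPP4B lies far below it.

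Other genes of the pathway moved in both directions. From 6 further lists, 132 of 143 genes were tested, of which 50 rose and 52 fell, with a median log2 fold change of -0.0014. The share called was 77.3%, against 57.7% of all tested genes and 74.4% of protein-coding genes whose mean count reached 50. Among IGF ligands and binding proteins, 4 rose and 4 fell of 8 tested: IGFBP2, which binds IGFs in the medium, went from 6.10 ± 0.814 to 15.5 ± 1.38 CPM (SD, n = 3), and IGFBP5 from 49.8 ± 4.05 to 15.3 ± 0.682 CPM (adjusted p = 1.93e-09 and 4.03e-14, edgeR). Of 18 other receptor tyrosine kinases and adaptors, 3 rose and 11 fell. The receptor gene FGFR4 rose 2.26-fold and the adaptor gene GAB2 2.06-fold, and the neurotrophin receptor gene NTRK2 fell 2.79-fold (adjusted p = 7.61e-10, 4.99e-08 and 1.95e-06). Of 19 other PI3K subunits and phosphoinositide enzymes, 9 rose and 5 fell. INPP5D, which encodes the lipid phosphatase SHIP1, fell from 11.6, 11.5 and 11 CPM to 0.187, 0.309 and 0.306 CPM (adjusted p = 3.71e-15). PIP4K2C, a phosphoinositide kinase gene, rose 2.10-fold (adjusted p = 7.92e-12).

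Inputs to mTORC1 from amino acids and energy were divided 14 to 14 of 39 tested. All 3 of the stress-responsive sestrins, which restrain mTORC1, fell, and 2 of them by 2-fold or more: SESN1 from 67.1 ± 3.50 to 30.3 ± 0.903 CPM and SESN2 from 91.9 ± 12.1 to 45.2 ± 4 CPM (SD, n = 3; adjusted p = 8.01e-13 and 2.11e-05, edgeR). SESN3, which is outside the naming rule and was chosen after its values were seen, fell 1.44-fold from 253 ± 15.7 CPM (adjusted p = 5e-09). Of 32 other AKT and mTOR partners and substrates, 15 rose and 9 fell. Besides FOXO4, HSP90AB1, a chaperone gene, rose 2.55-fold, and CDKN1A and PHLDA3, which p53 is known to induce, fell 10.2-fold and 2.55-fold (adjusted p = 2.12e-16, 9.45e-17 and 5.34e-09). Of 19 genes known as FOXO targets, 6 rose and 11 fell. The list is not limited to genes that FOXO factors induce, so these counts give no single direction. CCNG2 fell from 57.0, 53.2 and 46.3 CPM to 22.1, 24.4 and 23.1 CPM (adjusted p = 3.07e-11). CCND1 rose from 34.1, 34.1 and 27.9 CPM to 112, 121 and 115 CPM (adjusted p = 3.4e-14). Whether the FOXO levels bear on these genes was not tested.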

How the data were processed

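Per the labels and the study's methods, the authors extracted total RNA, reduced rRNA, sequenced paired reads, aligned them to hg38 with STAR 2.7.3a in Partek 10.0.22 and deposited estimated counts per gene from Partek's E/M quantification, which divides reads among overlapping features. A site sequence and an overlapping gene are not reported here. Between 45.22% and 49.95% of the values of a library were therefore not whole, and 33 of the 38 genes had such a value. The strand setting is not given in the sources used here, and 30 of the 38 genes overlap another gene of the table. A second deposited table holds the authors' own comparison (p-values, ratios, fold changes and group means) and was not used.

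The estimated counts were rounded. Genes with a count above 12 in any library were kept (23952 of 30270) and tested with edgeR 4.0.16 in R 4.3.3 (TMM scaling, robust glmQLFit, glmQLFTest, group as the only term, Benjamini-Hochberg adjustment over all tested genes, called below 0.05). CPM are TMM-scaled. Levels per length use the merged exons of GENCODE release 44, to which all 38 genes matched by symbol. For IRS4 these exons are longer than the interval counted, so its level per length is understated. Family shares were not computed for the AKT genes. On data simulated for this comparison of 3 against 3 libraries and 23952 genes, 44% of genes changed by 1.25-fold, 76% by 1.5-fold, 86% by 2-fold and 100% by 4-fold were recovered. Only 50 genes were changed at each fold, all with a mean count of 50 or more. In the data 57.7% of genes were called, so the adjustment was stricter in the simulation and its shares do not carry over to the data. Replicates of a group differed by more than counting noise (chi-square per degree of freedom 2.44 to 10.3), so none was treated as a duplicate. Library numbers did not pair the samples (correlation of same-numbered deviations 0.0519, -0.0115 and -0.0222).

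The 38 genes and all further lists were chosen with earlier results of these data known. All 38 are named; of the further lists, genes called at 2-fold or more with a mean count of 50 or more are named, at most 4 per list. Alternatives were library-size and RLE scaling, other count filters, a replicate block, a GC and length offset, limma 3.58.1 (voom, and log2(CPM + 1)), DESeq2 1.42.0 and leaving out each library.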

Additional observations from a re-analysis of the deposited data

How the results depend on the processing

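The 18 genes listed above kept their direction and call in all 15 alternatives. The number of pathway genes called higher fell from 20 to 10 with scaling to library size alone and to 9 with limma on log2(CPM + 1), while 14 were called lower under each. Both scale to library size without TMM, so they are not separate checks of the scaling. With DESeq2, 15 were called higher and 11 lower. Leaving out single libraries gave 24 to 30 called genes in all, 14 to 19 higher and 10 to 11 lower. The lowest count came without ΔTUT4/7 1. Small changes turned direction: PIK3C2A to -0.0061 and -0.0048 (log2), MAPKAP1 to -0.033 under each, and TSC2 to -0.030 and -0.033, with library size alone and with limma on log2(CPM + 1) respectively. With a GC and length offset, PIK3C3 turned to 0.092, AKT2 to 0.040 and GSK3B to 0.18, the last called (adjusted p = 0.000296, edgeR). Leaving out single libraries moved AKT2 between -0.081 and 0.048 (higher without WT 1 at 0.048 and without ΔTUT4/7 2 at 0.020) and GSK3B between -0.050 and 0.015 (higher without WT 2 at 0.0010 and without ΔTUT4/7 1 at 0.015). The cause was not tested. The replicate block gave 31 called genes, 20 higher and 11 lower, and changed no call of the 38; since the numbers do not pair the samples, it is given once. In the simulation described above, changes of 1.5-fold were recovered in part only, and its shares do not carry over to the data.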
